A study of Mus musculus with 6 samples.

Results

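Inner root sheath keratins were measured as the genes Krt25, Krt27, Krt71 and Krt72 in whole skin of mice. The members were all probe sets that the platform annotation assigns to 1 of these symbols or to an older synonym. They are 4 of the 8251 genes named on the array. Each had 1 probe set of the 12488, and all 4 passed the filter on low values. Total RNA of whole skin, taken 5 days after birth, was hybridised to 6 single-sample Affymetrix expression arrays. The FVB group held 3 samples of FVB mice, an albino inbred strain. The GC13 group held 3 samples of GC13 mice, which are transgenic and overexpress Hoxc13. This gene encodes a homeodomain protein that binds DNA and acts in the hair follicle. The labels give neither the promoter of the transgene nor the strain background, founders or sex of the mice. They also leave unsaid whether each sample was a different mouse, so a p-value covers the spread between arrays, which could be technical. The annotation gave Hoxc13 no probe set, so the overexpressed gene itself was not analysed here.

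The inner root sheath is the rigid tube that surrounds and moulds the growing hair shaft and is shed before the hair leaves the skin. Its cells fill with intermediate filaments built from pairs of a type I and a type II keratin, together with trichohyalin, which peptidylarginine deiminases and transglutaminases modify and cross-link. Krt25 and Krt27 are type I keratins of the sheath. Krt71 is a type II keratin made throughout the sheath, and its mutations give caracul mice their curly coat. Krt72 is a type II keratin known from the cuticle of the sheath, the layer that faces the hair. At the age sampled, mouse follicles are growing their first coat and hold an active sheath.

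The arrays differed in more than the line. The intensity ratio of the 3' to the 5' control probe set of Gapdh, which rises as transcripts lose their 5' part, ran from 0.894 to 0.958 on the FVB arrays. It was 2.22, 9.58 and 2.19 on GC13 replicates 1, 2 and 3 (exact two-sided permutation test, n = 3 per group, p = 0.1, the smallest these numbers allow). GC13 replicate 2 also stood alone in the beta-actin ratio, at 3.80 against 1.16 to 1.43. The Y-linked gene Eif2s3y lay between 69.4 and 98.9 in FVB, at 143 on GC13 replicate 2, and at 3.25 and 4.60 on GC13 replicates 1 and 3. Total intensity per array lay between 1626361 and 1736141, and 3 arrays per group limit the precision. Among 8 lists with 48 measured markers of other skin cells, no gene passed the limma test after adjustment, and 19 had an unadjusted p below 0.05, against 15.5% of all probe sets tested. Without GC13 replicate 2, in a fit that called 6.0% of all probe sets higher and 8.8% lower, 15 of the 48 were called. The 10 higher were 4 fibroblast genes (Col1a2, Col5a1, Col6a3, Pdgfra), 4 muscle genes (Tnnt3, Myh3, Casq1, Des), Eng and Ncam1. The 5 lower were the melanocyte genes Tyrp1 and Oca2, the macrophage gene C1qa, and the erythroid genes Hba-a1 and Alas2. On the array left out, Des read 28.5, below every FVB array, and Hba-a1 read 2219, above every FVB array. The summed intensity of the 9 fibroblast markers was 8945 to 9596 in FVB and 11222 to 14472 in GC13. That of 9 skeletal muscle markers was 2509 to 2628 and 2796 to 3327. The 7 endothelial markers summed to 614 to 741 and 856 to 1116, and the 7 melanocyte markers to 1206 to 1278 and 754 to 985. The 5 adipocyte markers summed to 1652 to 1740 and 1762 to 2443, the 6 macrophage and T cell markers to 384 to 426 and 284 to 368, the 3 erythroid markers to 1781 to 1839 and 989 to 2302, and the 2 nerve markers to 174 to 181 and 185 to 293. No marker was listed at 0, and the part of these shifts in the results below was not tested. The probe sets of Krt5, Krt14 and Krt15, keratins that define basal epidermal and follicle keratinocytes, read only 0.676 to 14.2 over all arrays and did not pass the filter. Krt10, a keratin of the suprabasal epidermis, read 1986 to 2324 by 1 probe set and 0.508 to 9.17 by another, so a dim probe set does not show that a keratin was absent.

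The promoters of the members are shown because the members split in the comparison of the groups and the overexpressed protein is a transcription factor. Each line gives the 250 bases before the annotated transcript start in RefSeq (build GRCm38.p6, the C57BL/6J reference and not the FVB sequence), 5′ to 3′ along the gene. Capitals mark the TATA box letters TATAAA, searched on the gene's strand, and the GATA words, searched on both strands, which were AGATAA or AGATAG or TGATAA or TGATAG. All 4 symbols matched the promoter table.
Krt25 promoter, chr11:99322952-99323201, minus strand: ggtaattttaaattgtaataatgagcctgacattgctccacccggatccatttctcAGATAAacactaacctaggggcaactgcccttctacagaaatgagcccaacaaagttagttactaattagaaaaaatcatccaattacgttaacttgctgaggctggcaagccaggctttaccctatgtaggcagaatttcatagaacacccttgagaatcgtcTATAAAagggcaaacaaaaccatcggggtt
Krt27 promoter, chr11:99351119-99351368, minus strand: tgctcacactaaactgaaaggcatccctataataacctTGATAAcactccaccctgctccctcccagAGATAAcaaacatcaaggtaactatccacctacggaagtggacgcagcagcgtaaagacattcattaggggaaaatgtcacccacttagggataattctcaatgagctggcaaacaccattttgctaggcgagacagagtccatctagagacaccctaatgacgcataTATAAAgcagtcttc
Krt71 promoter, chr15:101743098-101743347, minus strand: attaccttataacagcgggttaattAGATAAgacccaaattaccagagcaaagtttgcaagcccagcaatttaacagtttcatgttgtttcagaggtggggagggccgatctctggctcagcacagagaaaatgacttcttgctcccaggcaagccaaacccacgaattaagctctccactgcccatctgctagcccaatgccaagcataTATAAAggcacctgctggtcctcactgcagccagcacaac
Krt72 promoter, chr15:101786521-101786770, minus strand: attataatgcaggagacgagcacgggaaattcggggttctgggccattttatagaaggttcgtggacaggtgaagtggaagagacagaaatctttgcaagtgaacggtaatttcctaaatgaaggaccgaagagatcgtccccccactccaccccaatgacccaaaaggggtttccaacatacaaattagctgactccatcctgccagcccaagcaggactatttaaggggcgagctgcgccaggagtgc

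TATAAA stood in the windows of Krt25, Krt27 and Krt71, beginning 30, 15 and 40 bases before the start, and was not in that of Krt72. Variants of this word were not searched, and the Krt72 window holds TATTTAAG, beginning 30 bases before the start. The search therefore does not show that Krt72 lacks a TATA box. Of 32851 windows of the same length in the table, 7.59% held it. A GATA word, the kind of site that Gata3 and its relatives bind, stood in the same 3 windows. It began 194 bases before the start in Krt25, 212 and 183 bases before it in Krt27, and 225 bases before it in Krt71. The Krt72 window held none of these letters, and 26.5% of all windows held at least 1 GATA word. A binding consensus of Hoxc13 was searched on both strands as TTTATNAA, TTTATNAG, TTTATNGA, TTTATNGG, TTAATNAA, TTAATNAG, TTAATNGA and TTAATNGG. It matched TTTATAGA in Krt72, beginning 203 bases before the start, and TTAATTAG in Krt71, beginning 231 bases before it and overlapping the GATA word there by 2 bases. In Krt25 it matched TCTATAAA, read on the opposite strand and overlapping the TATA box, and in Krt27 there was no match. Across all windows 17.2% held such a match. Among the 32 other keratin genes of the chromosome 11 and 15 clusters with a window, 12 held TATAAA and 12 held a GATA word. Neither stood in 14 of them, so Krt72 was not alone among keratins in this. The Hoxc13 consensus matched in 14 of these 32 windows, so matches were common among keratins outside the members. A match describes letters only, and the words were chosen with the expression values known.

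Among the 4 keratins, Krt72 was lower in GC13 skin, while Krt25, Krt27 and Krt71 did not pass the test. Those 3 read 2162 to 2854 in FVB, where the highest value of any probe set was 3673, 3058 and 3320 on replicates 1, 2 and 3. Whether intensities this near the top still follow the transcript level was not tested, for these keratins or for ratios with them. Krt72 read 1089, 1103 and 1216 in FVB replicates 1, 2 and 3 and 474, 361 and 424 in GC13 replicates 1, 2 and 3. All 3 GC13 values lay below every FVB value, with a gap wider than the range within either group. The means were 1136 ± 69.8 (SD, n = 3) and 420 ± 57.0 (SD, n = 3). On the centred log2(intensity + 2) scale Krt72 fell by 1.37 (SE 0.19, limma adjusted p = 0.0351), which is 2.58-fold with a 95% interval of 1.89-fold to 3.52-fold. Of the 9316 probe sets tested, 0.386% were called lower in GC13, 0.0859% higher and 0.472% in either direction. Krt72 ranked 30th by p among them, and 123 probe sets (1.32%) had a difference at least as far below 0. Groups that did not overlap were common, at 12.3% of probe sets with GC13 lower and 22.9% in either direction on the deposited scale. On the centred scale, where Krt72 did not overlap either, 9.91% had GC13 lower. In bulk skin, fewer cells of the sheath and less RNA per cell cannot be told apart. Whether the Krt72 probe set reads Krt72 alone was not tested. A probe set of Krt77, a keratin of the epidermis, had nearly the same intensity on every array, as given below.

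The lower Krt72 level was found on each GC13 array. Relative to the FVB mean, the centred log2 value was -1.22, -1.38 and -1.49 on replicates 1, 2 and 3, which is 0.429, 0.384 and 0.355 of the FVB level. The difference on replicate 2, with its Gapdh ratio of 9.58 and high Eif2s3y, lay between those on the other two. Without that array the log2 fold change was -1.36 (SE 0.16, limma adjusted p = 0.00833), in a fit that called 14.8% of all probe sets. The call rested on having all other arrays. Without FVB replicate 1, 2 or 3 the adjusted p was 0.301, 0.231 and 0.247, and without GC13 replicate 1 or 3 it was 0.0918 and 0.0972, with log2 fold changes between -1.44 and -1.30. In the fits that left out an FVB array limma called 0 probe sets in all, against 768 to 946 with an unadjusted p below 0.05. Every GC13 array had a higher Gapdh ratio than every FVB array, so the line and the RNA quality cannot be told apart here. In the fit without GC13 replicate 2, the line and Y-linked expression cannot be told apart either, for Krt72 or for other genes. The GC13 arrays left read 3.25 and 4.60 for Eif2s3y, against 69.4 to 98.9 in FVB. For Uty, also Y-linked, they read 4.87 and 7.19, against 13.3 to 15.2.

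**Figure D1:**
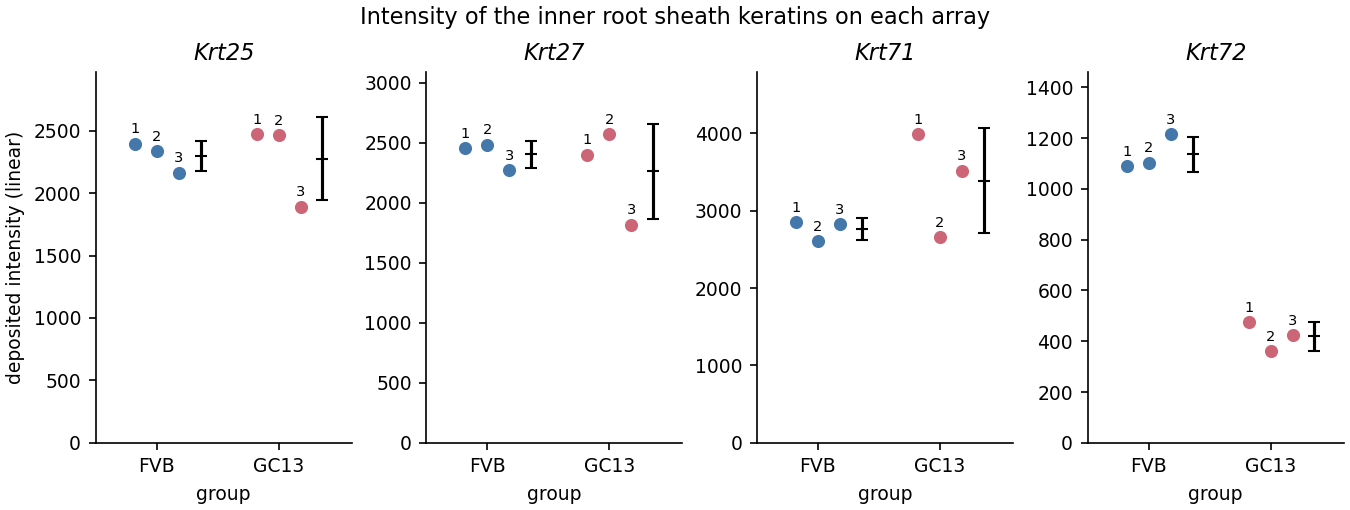
Deposited intensity (linear, y axis from 0) of each inner root sheath keratin on each array, with the replicate number above each point and the mean ± SD of 3 arrays as a bar to the right of each group. Krt72 separates the groups, from 1089 to 1216 in FVB and from 361 to 474 in GC13, while the other 3 keratins overlap on this scale.

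Krt71, the other type II member, had intensities of 2854, 2602 and 2827 in FVB and 3991, 2655 and 3519 in GC13. GC13 replicates 1 and 3 lay above every FVB array and replicate 2 lay within the FVB range, so the groups overlapped on the deposited scale. On the centred log2 scale of the test they did not, with GC13 at 11.97, 11.61 and 11.67 and FVB at 11.49, 11.30 and 11.41, as for 14.6% of all probe sets with GC13 higher. The log2 fold change was 0.35 (SE 0.20, limma adjusted p = 0.454), with a 95% interval from -0.12 to 0.82. Quantile normalization, which forces the arrays to 1 distribution, brought it to 0.01. Without GC13 replicate 2 it was 0.42 (limma adjusted p = 0.125). With array weights, where 41.3% of all probe sets were called, it was 0.53 and passed (limma adjusted p = 0.0105). The weights of GC13 replicates 1, 2 and 3 were 4.12, 0.107 and 0.329, so this value rested mostly on replicate 1, the array with the highest Krt71.

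The type I members Krt25 and Krt27 differed between the groups by less than the spread within GC13. Krt25 read 2394, 2336 and 2162 in FVB and 2473, 2464 and 1891 in GC13. Replicate 3 was the lowest array of each group, and the GC13 values spanned the FVB range on both sides. The log2 fold change was 0.05 (SE 0.24, limma adjusted p = 0.942), with a 95% interval from -0.51 to 0.61. Krt27 read 2455, 2482 and 2272 in FVB and 2399, 2573 and 1817 in GC13, again with replicate 3 lowest in each group and the groups overlapping. Its log2 fold change was -0.03 (SE 0.26, limma adjusted p = 0.972), with a 95% interval from -0.62 to 0.56. These intervals leave room for changes of up to 1.54-fold, so the test does not show that the type I keratins were the same. The sign of both differences depended on the arrays used. Without GC13 replicate 2 they were -0.11 for Krt25 and -0.22 for Krt27, and without GC13 replicate 3 they were 0.25 and 0.20. The Krt27 probe set carries the suffix that Affymetrix gives to probes shared by a gene family, so it may also read related type I keratins.

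The GC13 arrays spread more than the FVB arrays in each member, a difference that was not tested. The coefficient of variation of the 4 members was 4.77% to 6.15% in FVB and 13.6% to 20.0% in GC13. Krt71 had the widest spread in GC13 and Krt72 the narrowest. Which arrays were high or low differed among the members. On GC13 replicate 2 the centred values of Krt25 and Krt27 were 0.369 and 0.366 above the FVB mean, and on replicate 3 they were -0.36 and -0.48 relative to it. Krt71 was highest on replicate 1, at 0.57 above the FVB mean.

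Differences between members on the same array do not depend on scaling between arrays, and they asked whether Krt72 changed unequally to its partners. Log2 Krt72 minus the mean log2 of Krt25, Krt27 and Krt71 was -1.23, -1.16 and -0.98 on the FVB arrays. It was -2.59, -2.82 and -2.43 on the GC13 arrays, all below every FVB value. The difference between groups was -1.49, a 2.81-fold shift of Krt72 against the other members (exact two-sided permutation test over 3 and 3 arrays, p = 0.1, the smallest this design allows). Leaving out any 1 array kept it between -1.58 and -1.39. This difference uses the same Krt72 values as the test above, so it is not separate support for the lower level.

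Of the 6 pairs of members, those with Krt72 separated the groups and those without it did not. The 3 pairs with Krt72 share its values, so they restate its lower level and are not 3 separate findings. Krt72 against Krt71, both type II keratins, gave intensity ratios of 0.382, 0.424 and 0.431 in FVB and 0.119, 0.136 and 0.121 in GC13, a shift of -1.72 on the log2 scale. Its values varied little within groups, with an SD of 0.09 in FVB and 0.11 in GC13. Krt72 against Krt25 shifted by -1.42 and against Krt27 by -1.34. For each of these 3 pairs the exact permutation test gave p = 0.1, and 0.2 after Benjamini-Hochberg adjustment over the 6 pairs, so none can pass with 3 arrays per group. Krt71 against Krt25 and against Krt27 shifted by 0.30 and 0.38 (exact permutation p = 0.4 for both, adjusted p = 0.4). On GC13 replicate 2 both differences lay below those of all FVB arrays, and on replicates 1 and 3 above them. Krt27 against Krt25 shifted by -0.08 (exact permutation p = 0.2, adjusted p = 0.3), with intensity ratios between 0.961 and 1.06 over all arrays.

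**Figure D2:**
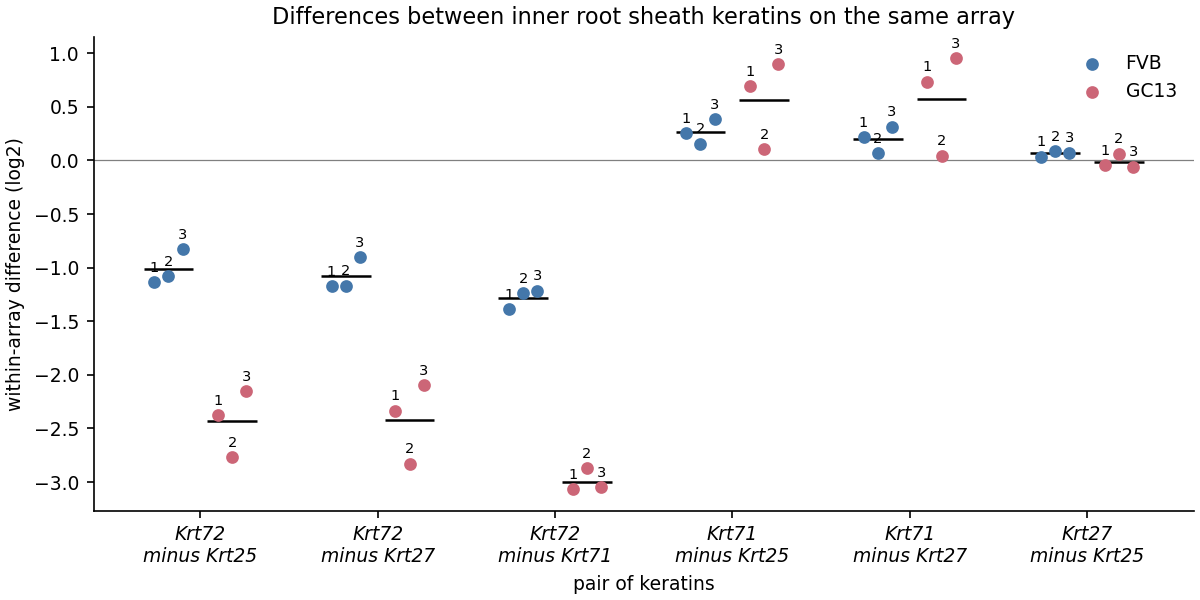
Difference of log2(intensity + 2) between the probe sets of 2 keratins on the same array (y axis), for each of the 6 pairs (x axis); points are arrays with their replicate number and lines are group means. In the 3 pairs with Krt72 the GC13 arrays lie below all FVB arrays, with mean shifts between -1.72 and -1.34, and in the other 3 pairs the groups overlap.

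The patterns most like each member over the 6 arrays were taken from the 6867 genes tested, as a description by Pearson's r. Krt72 was most like Krt77 (r = 0.998), a type II keratin of the epidermis in the same gene cluster. Krt77 read 1060, 1066 and 1152 in FVB and 451, 374 and 430 in GC13 and also fell (log2 fold change -1.31, SE 0.19, limma adjusted p = 0.037). The intensity ratio of Krt72 to Krt77 lay between 0.964 and 1.06 on all 6 arrays. The annotation used here gives no accession for either probe set and the probe sequences were not used, so whether both read the same transcript was not tested. Their likeness and their falls may therefore not come from separate genes. The fall read by the Krt72 probe set may thus not be that of Krt72 itself. A ratio of 2 probe sets compares their change and not their transcript levels. Next came Capg, an actin-capping protein gene, and Cops5, a gene of the COP9 signalosome, both with r near that of Krt77 (0.996 and 0.995) and log2 fold changes of -1.11 and -1.15 that did not pass (limma adjusted p = 0.0582 for both).

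Krt71 was most like Mt2, a metallothionein gene, then the chloride transporter gene Clcn5 and Gnas, the gene of a stimulatory G protein subunit (r = 0.995, 0.992 and 0.990). Mt2 read 2441, 2248 and 2432 in FVB and 3755, 2407 and 3267 in GC13, with the same dip on replicate 2. Krt25 was most like Ecpas, Ccni and Commd2 (r = 0.997, 0.997 and 0.996). For Krt27 the closest were Ube2a, Ctnnb1, which encodes beta-catenin, and Ftsj3 (r = 0.998, 0.998 and 0.996). Ctnnb1 read 1430, 1442 and 1328 in FVB and 1399, 1523 and 1096 in GC13. Krt25 and Krt27 were themselves alike (r = 0.979), each ranking within the 57 genes nearest to the other. The Krt27 probe set may read related type I keratins, and whether it also reads Krt25 was not tested. Their likeness may therefore not come from separate genes. Krt71 had r = 0.14 with Krt25, -0.06 with Krt27 and -0.76 with Krt72. All these values share the same arrays, so what marks 1 array, such as replicate 2 or 3 of GC13, enters each of them.

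Other genes of the sheath and its surroundings were read against the same background. Of 6 further structural genes, 1 was measured, Tchh, the gene of trichohyalin. It read 138, 219 and 83.7 in FVB and 53.0, 166 and 60.4 in GC13, with replicate 2 high in each group and the groups overlapping (log2 fold change -0.66, SE 0.55, limma adjusted p = 0.602). A second Tchh probe set had -0.53 and the third was too dim to be tested. Of 11 enzymes 6 were measured and none passed, while 4 had an unadjusted p below 0.05, against 15.5% of all probe sets. The median log2 fold change of the 6 was -0.61, against 0.08 over all probe sets tested, and 5 lay below 0. Padi1, a deiminase gene, read 168, 181 and 173 in FVB and 88.3, 79.7 and 81.6 in GC13, so the groups did not overlap (log2 fold change -0.97, SE 0.20, limma adjusted p = 0.0894). Padi3, which acts on trichohyalin, and Padi4 had -0.55 and -0.66. Padi2 went the other way, at 0.47 (SE 0.31, limma adjusted p = 0.51). Ctsl had -0.24 with the groups overlapping (limma adjusted p = 0.784). The transglutaminase gene Tgm3 had 38.6 ± 2.66 and 22.6 ± 11.6 (SD, n = 3 each), a log2 fold change of -0.76 (limma adjusted p = 0.278). Without GC13 replicate 2, Padi1 and Padi4 passed, in the fit that called 8.8% of all probe sets lower.

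Keratins of the companion layer, which lies just outside the sheath, had 4 of 5 genes measured, and none passed while 1 had an unadjusted p below 0.05. Their median was 0.18. Krt6a had a log2 fold change of 0.16 by its brighter probe set and -0.98 by the dimmer one, neither past the threshold, so the probe sets of that gene disagreed. Krt16 and Krt17 had 0.20 and -0.06, and Krt6b, with a wide spread, had 1.75 (SE 0.59, limma adjusted p = 0.231). Of 19 regulators of the sheath and matrix, 15 were measured and none passed, while 6 had an unadjusted p below 0.05, against 15.5% of all probe sets. Their median was -0.53, with 10 below 0 and 5 above. Foxn1, whose loss gives nude mice, had -2.60 (SE 0.55, limma adjusted p = 0.1). It read 41.3, 46.3 and 53.5 in FVB and 19.0, 1.31 and 4.35 in GC13, where replicates 2 and 3 lay close to the pseudocount of 2. The homeobox gene Dlx3 had -0.85 and Foxq1, the satin hair gene, had -0.97 (limma adjusted p = 0.126 and 0.135). Gata3, which specifies the inner root sheath, read 559, 533 and 368 in FVB and 270, 356 and 279 in GC13, with no overlap on the deposited scale. On the centred scale of the test the groups overlapped, with GC13 at -0.79, -0.16 and -0.85 relative to the FVB mean (log2 fold change -0.60, SE 0.28, limma adjusted p = 0.355). Without GC13 replicate 2 the regulators Dlx3, Foxn1, Foxq1, Msx1 and Elf5 were called lower and no regulator was called higher, against 8.8% and 6.0% of all probe sets in that fit. Elf5 read 94.5 on the array left out, above FVB at 66.8, 73.3 and 72.6, so its call depended on leaving that array out.

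**Figure D3:**
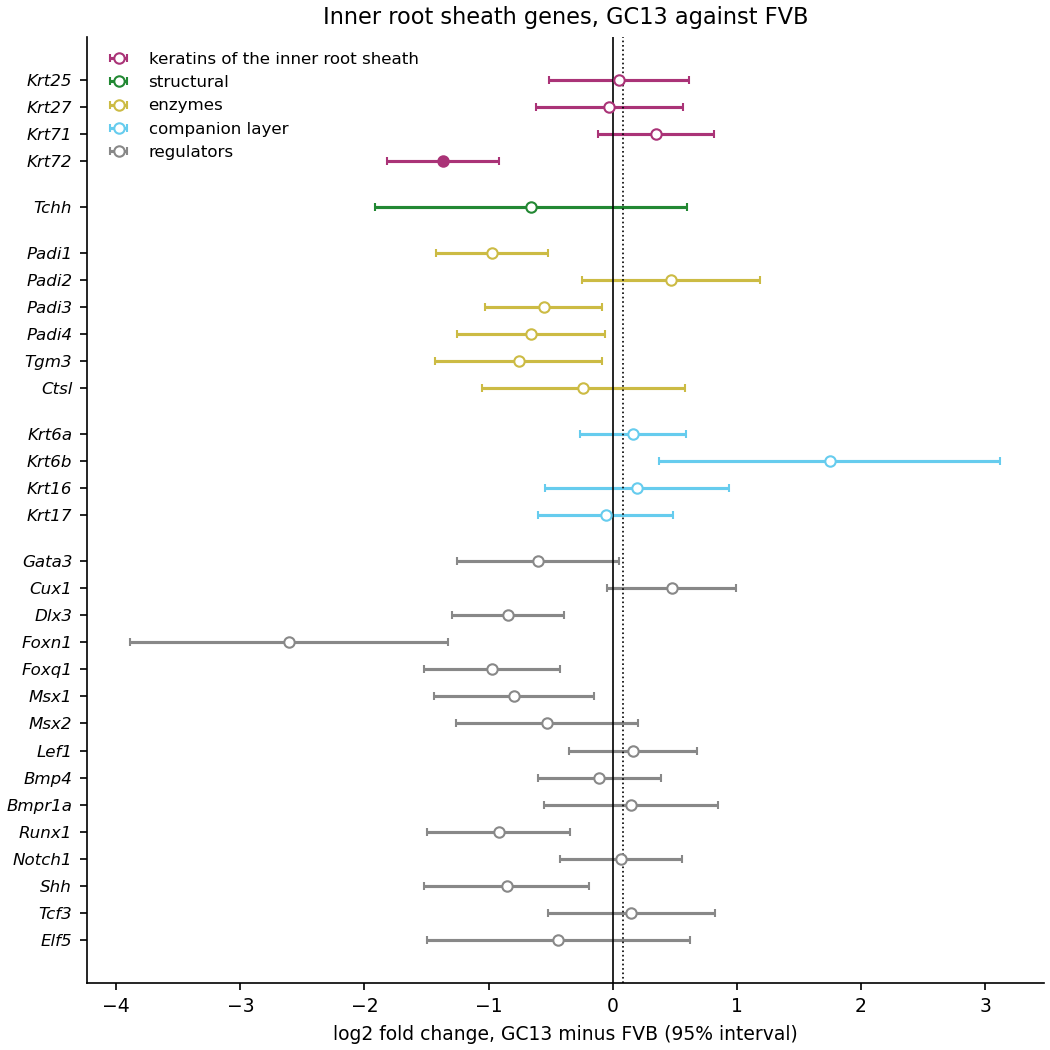
Log2 fold change of GC13 minus FVB (x axis) with its unadjusted 95% interval for the 4 inner root sheath keratins and the measured genes of the 4 further lists (y axis), each by its brightest probe set. Filled points passed the limma test after adjustment, which among these genes was Krt72 alone, and the dotted line is the median of all probe sets tested, 0.08.

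The members lie in 2 keratin clusters of the mouse genome, Krt25 and Krt27 among type I genes on chromosome 11 and Krt71 and Krt72 among type II genes on chromosome 15. Within the RefSeq order, Krt26 lies between Krt25 and Krt27, and Krt74, annotated as a pseudogene, lies between Krt71 and Krt72. Of 54 keratin genes on these chromosomes 30 had a probe set tested, and 2 fell by their brightest probe set, Krt72 and Krt77. As these 2 probe sets may read the same transcript, which was not tested, the count may stand for 1 gene. None rose, and the median of the 30 was 0.06, with 17 above 0 and 13 below. On the chromosome 15 side the order Krt72, Krt73, Krt2, Krt1, Krt77 held a mix. Krt2, a keratin of the upper epidermis, had -0.63 by its brighter probe set (limma adjusted p = 0.203) and fell by 1.95 by its dimmer one (limma adjusted p = 0.0294). Krt1, between Krt2 and Krt77, had a log2 fold change of 1.11 (limma adjusted p = 0.158). It read 1435, 1216 and 1216 in FVB, and the GC13 arrays read 3661, 1489 and 3338, lowest on replicate 2.

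On chromosome 11 the 15 measured keratins lay between -0.44 and 1.45 and none passed. The 10 measured hair shaft keratins, of both clusters, had a median of -0.28, and 2 had an unadjusted p below 0.05, close to the 15.5% of all probe sets. Krt84, a hair cuticle keratin, read 77.1, 83.9 and 84.7 in FVB and 33.7, 39.7 and 48.9 in GC13 (log2 fold change -0.91, limma adjusted p = 0.126). Its other probe set, dimmer over all arrays but brighter in FVB, read 105, 110 and 103 in FVB and 4.98, 24.7 and 5.84 in GC13. That probe set had -3.18 (limma adjusted p = 0.0595). Krt83 and Krt86 had -0.66 and -0.47. The 10 measured desmosome genes of the follicle had a median of -0.07 and the 4 measured epidermal keratins, Krt77 among them, one of -0.25. Without GC13 replicate 2, 5 of the 30 keratins were called lower and 4 higher, in the fit that called 8.8% of all probe sets lower and 6.0% higher. The lower were Krt84, Krt34, Krt35, Krt72 and Krt77 (the last pair with the same doubt about their probe sets), the higher were Krt1, Krt12, Krt19 and Krt36, and the members Krt25, Krt27 and Krt71 were in neither group. On the array left out, Krt36 read 244, below every FVB array.

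**Figure D4:**
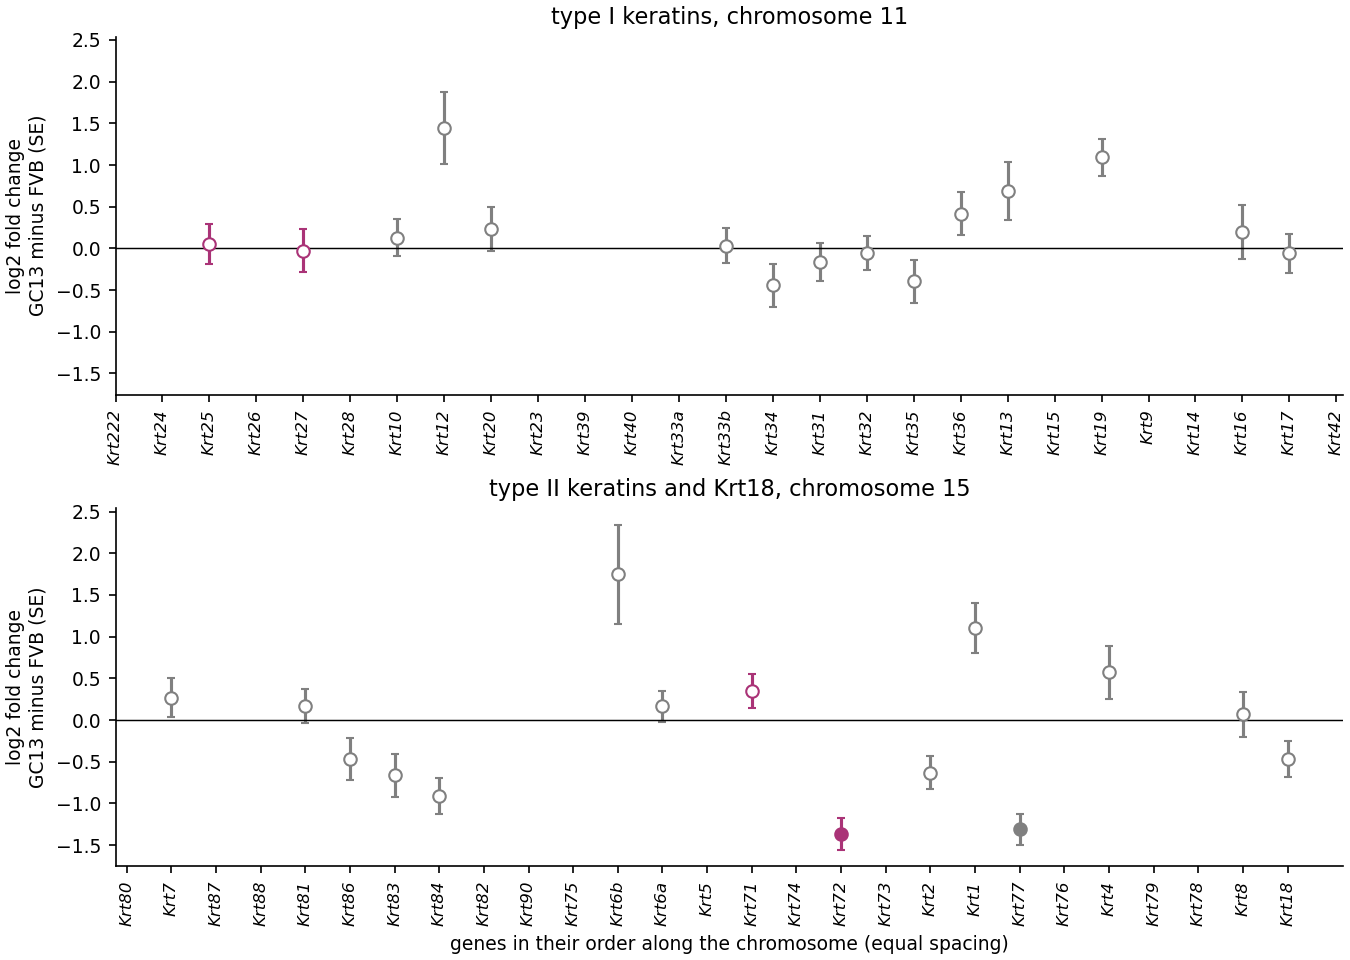
Log2 fold change of GC13 minus FVB with its SE (y axis) for keratin genes in their order along chromosome 11 (top) and chromosome 15 (bottom), at equal spacing. Inner root sheath keratins are in purple, filled points passed the limma test after adjustment, and genes without a point had no probe set tested; Krt72 and Krt77, whose probe sets may read the same transcript, are the 2 filled points.

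**Figure D5:**
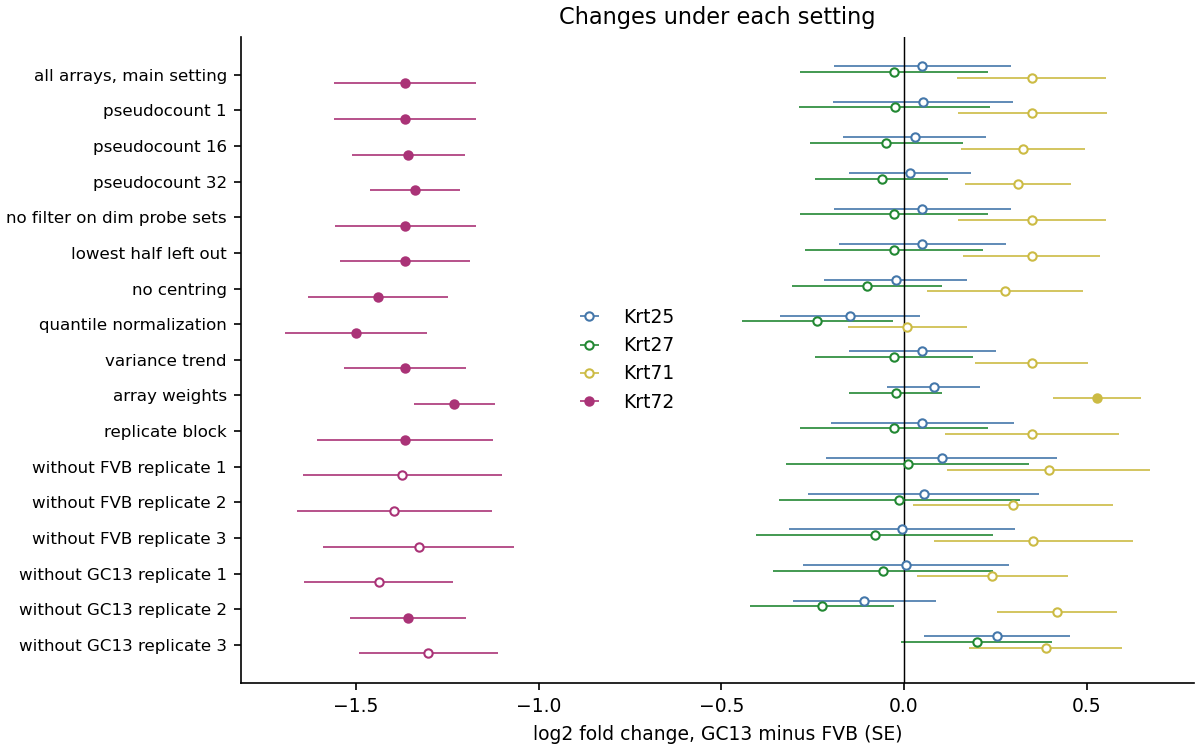
Log2 fold change of GC13 minus FVB with its SE (x axis) for each member under the main setting and 16 alternatives (y axis), with filled points where the limma adjusted p was below 0.05. Krt72 stays between -1.50 and -1.23, while Krt25 and Krt27 lie on either side of 0 and Krt71 runs from 0.01 to 0.53.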

How the data were processed

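The deposited table gave 1 linear intensity per probe set and array. Per the values, the authors had scaled each array to a mean of 100 with the highest and lowest 2% left out, while their software, background step and detection calls are unstated. Without the 66 control probe sets, values were taken to log2(intensity + 2), with 2 from the 10th percentile, and centred on array medians, which differed by up to 0.345. Dropping the 25% with the lowest overall mean left 9316 of 12422.

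The test was limma 3.58.1 in R 4.3.3 (lmFit, eBayes; two-sided), adjusted by Benjamini-Hochberg over the 9316 probe sets, with a threshold of 0.05. Fold changes are GC13 minus FVB and understate those of dim probe sets. Symbols came from the platform annotation, updated by Entrez identifier to RefSeq (10817 of 10833 matched), and a gene stood by its brightest probe set. The scripts were tested on simulated arrays.

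Members and lists were chosen with earlier results of these data known. The rule allowed naming all members and the measured structural, enzyme and companion layer genes. It also allowed the 3 genes with the smallest p of each other list and the 3 most like each member. Not every gene it allowed is named here. Gata3, Cux1, Msx1, Elf5, Krt12, Krt19, Krt34, Krt35 and Krt36 were named after their values were seen. So were the 15 other-cell markers called without GC13 replicate 2. Alternatives changed the pseudocount, filter, scaling, variance trend, array weights and arrays used, or blocked on the replicate number. Deviations of same-numbered arrays correlated at -0.07, 0.18 and 0.36, so the numbers were not taken as pairs.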

Additional observations from a re-analysis of the deposited data

How the results depend on the processing

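The fall of Krt72 kept its direction under all 17 alternatives, between -1.50 and -1.23, and passed the limma threshold under 12. Both counts, and the 17 of each other member, include the mean over probe sets. With 1 probe set per member, that mean repeats the main setting and is no separate check. Krt72 missed the threshold in 5 of the 6 fits that left out 1 array, where its log2 fold change ran from -1.44 to -1.30. Krt72 relative to the other members kept its direction under all 11 alternatives, between -1.58 and -1.38. The log2 fold change of Krt71 stayed above 0 under all 17 alternatives and passed under 1, array weights, at 0.53. For Krt25 the sign turned without centring (-0.023), with quantile normalization (-0.15), without FVB replicate 3 (-0.0056) and without GC13 replicate 2 (-0.11). For Krt27 it turned without FVB replicate 1 (0.01) and without GC13 replicate 3 (0.20). Over the fits that left out 1 array, Krt25 ran from -0.11 to 0.25 and Krt27 from -0.22 to 0.20. The cause was not tested.

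The count of probe sets called moved more than the members did. Against 44, it was 83 with a pseudocount of 16 and 119 with 32, 23 with the dimmer 50% left out, 28 without centring and 3850 with array weights. With the replicate block it was 78, and the block changed no call among the members (Krt72 limma adjusted p = 0.0462). Leaving out 1 array gave 0 to 1379, highest without GC13 replicate 2. Each member has 1 probe set, so the mean over probe sets equals the value given. Signal over background is unknown for these intensities, and the probe set of Krt27 may read related keratins. The probe sets of Krt72 and Krt77 may read the same transcript, which was not tested, so the fall may not be that of Krt72 itself.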
